A study of Homo sapiens with 11 samples.

Results

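The genes described here are 3 FOXO transcription factors (FOXO1, FOXO3 and FOXO4) and 7 genes that FOXO factors are known to switch on (PIK3IP1, SESN3, CCNG2, TXNIP, PDK4, CITED2 and TNFSF10). They were chosen by symbol, and all 10 were found among 28152 gene symbols and passed the filter on low counts that left 16653. RNA was sequenced from human tumour xenografts labelled BT474, described in the labels as a breast cancer line positive for hormone receptors and HER2, taken at day 33. Female athymic nude mice, which lack a normal T cell compartment, carried an estradiol pellet of 0.72 mg made to last 90 days, in both groups, and received the cells in a mammary fat pad, with enrolment above 95 cubic millimetres. One group of 6 tumours came from mice given vehicle (mannitol in water) under the skin every 4 days. The other group of 5 came from mice given evexomostat (SDX-7320), an inhibitor of methionine aminopeptidase 2, on the same schedule at 12 mpk, the unit as the label writes it. All tumours stem from 1 cell line, each library is 1 tumour with whatever host tissue it held, and the question was whether the drug changed expression in the tumour.

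FOXO proteins are forkhead transcription factors held in check by insulin and growth factor signalling. When PI3K is active, AKT phosphorylates them and they leave the nucleus. When that signal falls they return and switch on genes for cell cycle arrest, stress defence, fuel switching and cell death. In breast cancers driven by HER2 this pathway is known to keep FOXO factors restrained. Their control is mainly through the protein, so transcript levels of the factors do not report their activity, and the targets are the usual transcript readout.

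At the transcript level, no FOXO gene and no target of the 10 passed the test between evexomostat and vehicle. In edgeR's quasi-likelihood test 0 of 10 had an adjusted p-value under 0.05, where 0.606% of all tested genes did (0.174% with higher and 0.432% with lower levels in treated tumours). Before adjustment 2 of 10 had a p under 0.05, FOXO1 and CCNG2, both with lower estimates under evexomostat, where 13.4% of all tested genes were under that limit, 8.55% with lower estimates. The groups did not overlap in 0 of 10 genes, against 2.97% of all tested genes. Estimates were above 0 in 6 genes and below 0 in 4, with a median log2 fold change of 0.04, beside -0.04 over all tested genes. DESeq2, limma-voom and limma-trend also called 0 of the 10, and limma-voom with sample quality weights called 1, FOXO1.

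**Figure D1:**
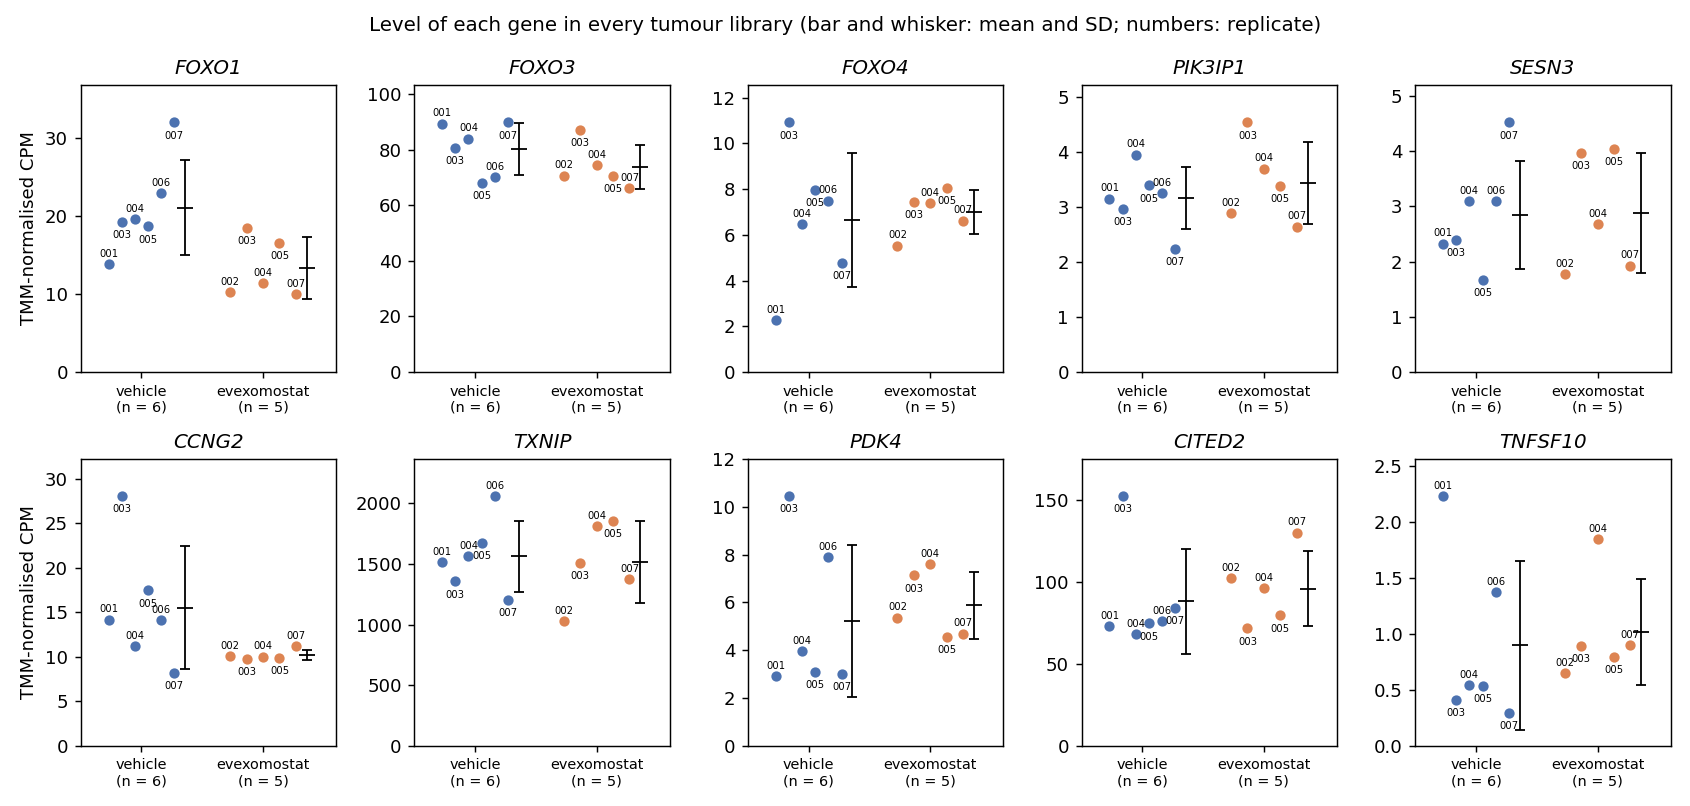
Level of each gene as TMM-normalised CPM (linear axes from 0) in every library, vehicle in blue (n = 6) and evexomostat in orange (n = 5), with the mean and SD as bar and whisker and the replicate number at each point. The groups overlap in every panel, and the evexomostat libraries of CCNG2 sit between 9.72 and 11.2 CPM, within the vehicle range of 8.16 to 28.02 CPM.

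Library totals ran from 22808033 to 39249329 counts, so that 3 counts correspond to 0.0764 to 0.132 RPM (counts scaled to a common library total), a limit that covers counting error only. Levels below are CPM, the same unit scaled with TMM factors, which correct for libraries in which a few genes take a large share. In vehicle replicate 001 the top 100 genes took 23.9% of all counts, where they took 16.2% to 17.6% in the rest of that group, so values that move with this library are also given without it. Without it, edgeR called 0 of the 10 genes and 865 of all genes, against 101 with all libraries. These 101 were 29 higher and 72 lower, which became 28 and 42 with upper quartile scaling, and 43 and 31 or 38 and 30 with limma-trend on log2(RPM + 1) or log2(RPM + 0.1). Nothing in the labels ties a replicate to a culture or batch, and p-values measure the spread between these tumours.

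Most of the luminal genes that define the labelled line were low. ERBB2, the HER2 gene, averaged 53.7 RPM, ESR1 0.285 RPM and PGR 0.0655 RPM, and FOXA1, KRT19 and CDH1 averaged 1.05, 0.803 and 0.456 RPM, while KRT8 and KRT18 averaged 331.6 and 148.6 RPM. GATA3 and EPCAM averaged 6.50 and 3.03 RPM. The ESR1 and PGR levels do not bear out the hormone receptor status given in the labels. How the ERBB2 level compares with that of a HER2-positive line was not tested. The identity of the line rests on the labels alone. Summed markers of host tissue ranged from 17.2 to 72.1 RPM for adipocytes, 11.5 to 24.2 for endothelium, 44.0 to 95.9 for leukocytes and 396.8 to 2069 for fibroblasts and stroma. ADIPOQ and CD3E were at 0 counts in every library. Skeletal muscle markers, of which 7 of 12 were tested, summed to 4.48 to 21.7 RPM under vehicle and 6.36 to 62.0 RPM under evexomostat, except for 548.7 RPM in evexomostat replicate 005. How mouse reads were treated is not given in the sources used here, and in bulk tumour RNA fewer cells of a type and less RNA per cell cannot be told apart.

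Per kilobase of exon, the 10 genes spanned a wide range of levels. TXNIP was the most abundant at 424.9 ± 82.7 CPM per kb (SD, n = 11), followed by CITED2 at 36.2 ± 10.7 and FOXO3 at 10.03 ± 1.17. These 3 did not overlap with each other or with any lower gene in any library. FOXO1 (2.82 ± 1.03 CPM per kb), FOXO4 (1.98 ± 0.632), CCNG2 (1.75 ± 0.753), PDK4 (1.22 ± 0.542) and PIK3IP1 (0.862 ± 0.166) followed, and each overlapped with the next in that order. TNFSF10 (0.274 ± 0.177) and SESN3 (0.271 ± 0.0921) were lowest and did not differ beyond their spread.

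Of the factors, FOXO1, a mediator of insulin-responsive transcription, had the lowest p-value of the 10 genes. Its level under vehicle was 13.9 CPM in replicate 001, 19.3 in 003, 19.6 in 004, 18.7 in 005, 22.9 in 006 and 32.0 in 007. Under evexomostat it was 10.2 CPM in replicate 002, 18.6 in 003, 11.4 in 004, 16.6 in 005 and 9.98 in 007. Here 3 of the evexomostat tumours lay below every vehicle tumour, and replicates 003 and 005 lay above vehicle replicate 001 and below the rest. The log2 fold change was -0.66 (SE 0.23, 95% interval -1.16 to -0.16), with an edgeR p of 0.0137 and an adjusted p of 0.228. Without vehicle replicate 001 it was -0.75 (edgeR adjusted p 0.0608), and with sample quality weights in limma-voom it was -0.75 (adjusted p 0.0255). Over all 22 alternatives the estimate stayed below 0, from -0.81 to -0.50.

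FOXO1 was highest in vehicle replicate 007, the library with the highest summed level of the 20 hypoxia response genes (6267 RPM). Vehicle replicate 003, next in hypoxia genes at 5278 RPM, had a FOXO1 level of 19.3 CPM, close to the vehicle median of 19.4 CPM. The hypoxia genes summed to 2114 to 6267 RPM under vehicle and to 1893 to 2625 RPM under evexomostat. Without vehicle replicate 001 the lowest vehicle sum was 2749 RPM, above every evexomostat library. Their part in the FOXO1 values was not tested.

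FOXO3, the factor most tied to stress resistance and the most abundant of the 3, differed little between the groups. Its vehicle mean was 80.4 ± 9.34 CPM (SD, n = 6) and its evexomostat mean 73.9 ± 8.05 CPM (SD, n = 5). Every library lay between 66.2 and 89.9 CPM, the narrowest range of the 10 genes at 1.36 times from lowest to highest. On the log2 scale the fold change was -0.12 (SE 0.12, 95% interval -0.38 to 0.14, edgeR adjusted p 0.731). FOXO3B, a near-identical copy listed as a separate symbol, held counts equal to 8.38% of those of FOXO3 on average, and how the counting shared reads between them is uncertain.

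FOXO4, a smaller member of the family, ran from 2.28 CPM in vehicle replicate 001 to 10.9 CPM in vehicle replicate 003. The evexomostat libraries lay inside that range, from 5.52 to 8.05 CPM. The log2 fold change was 0.07 (SE 0.30, 95% interval -0.59 to 0.73, edgeR adjusted p 0.956), and without vehicle replicate 001 it was -0.10.

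**Figure D2:**
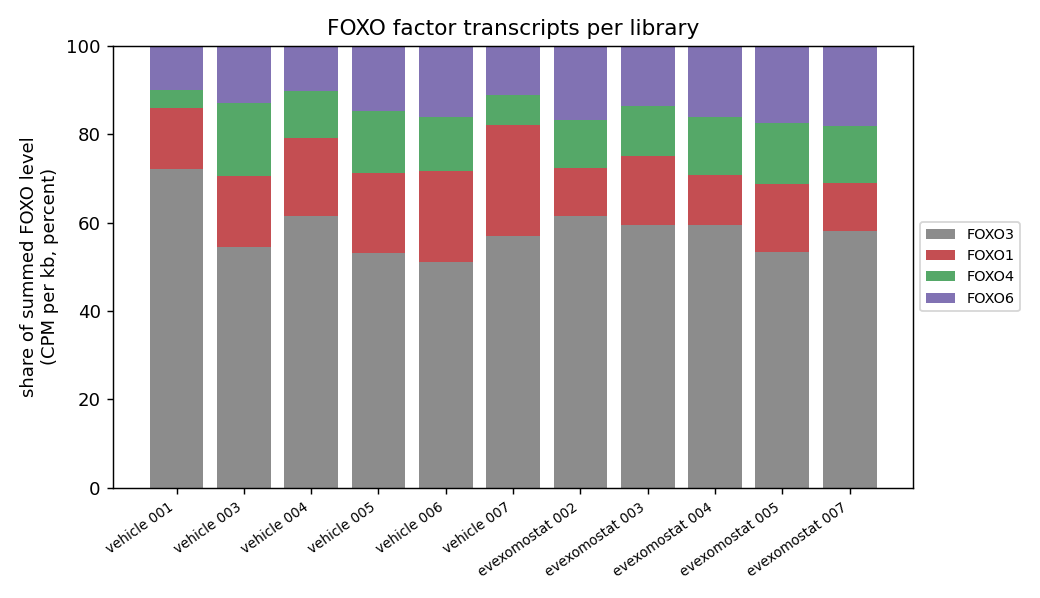
Share of each FOXO factor in the summed FOXO level of a library (CPM per kb of exon, percent), one bar per tumour, FOXO6 included. FOXO3 makes up 51.1% to 72.1% of every bar, and the red FOXO1 segment runs from 13.8% to 25.1% under vehicle and from 10.9% to 15.6% under evexomostat.

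Set against each other per kilobase, FOXO3 held most of the FOXO transcripts, with a mean share of 58.2% ± 7.69 in the vehicle tumours (SD, n = 6) and 58.3% ± 3.03 in the treated ones (SD, n = 5). FOXO1 held 18.6% ± 3.92 and 12.9% ± 2.48, and FOXO4 10.7% ± 4.58 and 12.4% ± 1.26. FOXO6, a family member best known from brain, held 12.5% ± 2.53 and 16.4% ± 1.72, and its own difference had an edgeR adjusted p of 0.618. Without vehicle replicate 001 the vehicle share of FOXO3 was 55.4% ± 3.98 (SD, n = 5), with a highest value of 61.4%. That of FOXO1 was then 19.6% ± 3.52, with a lowest value of 16.1%, above the evexomostat maximum of 15.6%. With replicate 001, at 13.8%, the groups overlapped. In CPM the lowest FOXO1 value without that replicate was 18.71 under vehicle, against a highest of 18.55 under evexomostat. In RPM the groups overlapped even then, with evexomostat replicate 003 at 20.1 and vehicle replicates 003, 004 and 005 at 19.0, 19.7 and 18.4. The vehicle shares of FOXO4 and FOXO6 without it were 12.0% ± 3.65 and 13.04% ± 2.45. These shares were chosen after values had been seen and carry no test.

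Of the targets, CCNG2 encodes cyclin G2, an unusual cyclin that slows the cell cycle and is a textbook FOXO target. Its vehicle levels were 14.2 CPM in replicate 001, 28.02 in 003, 11.17 in 004, 17.4 in 005, 14.1 in 006 and 8.16 in 007. Under evexomostat 4 libraries lay between 9.72 and 10.05 CPM and replicate 007 was at 11.16 CPM. Of the vehicle tumours 5 were above all evexomostat tumours, the nearest at 11.17 against 11.16 CPM, and vehicle replicate 007 was below them all. The log2 fold change was -0.61 (SE 0.26, 95% interval -1.17 to -0.06), with an edgeR p of 0.0333 and an adjusted p of 0.317. Vehicle replicate 003 set much of its size, since without it the estimate was -0.36 (edgeR adjusted p 0.499).

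CCNG2 was also the gene whose evexomostat tumours were most alike. Its coefficient of variation was 44.4% under vehicle and 5.71% under evexomostat, a ratio of 7.77 that 1.59% of all tested genes reached. Without vehicle replicate 003 the vehicle value was 26.9% and the ratio 4.72, which 7.93% of all tested genes then reached. A smaller variation under evexomostat was common, in 80.8% of all tested genes and in 6 of the 10 genes here. Without vehicle replicate 001 these were 62.9% and 6 of 10. FOXO1, SESN3, PIK3IP1 and TXNIP varied more under evexomostat, and without vehicle replicate 003 CITED2 did so (7.79% against 23.7%) while FOXO1 did not. This measure was chosen after seeing the data and was not tested.

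TXNIP encodes an alpha-arrestin that binds thioredoxin and limits glucose uptake, and it is driven by glucose-sensing factors as well as by FOXO. Its levels ran from 1201 CPM in replicate 007 to 2059 in replicate 006 under vehicle, with a median of 1539. Under evexomostat they ran from 1029 CPM in replicate 002 to 1854 in replicate 005, with a median of 1510. The groups overlapped over most of their ranges, with a log2 fold change of -0.04 (SE 0.19, 95% interval -0.45 to 0.36, edgeR adjusted p 0.956).

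The sequences below are the 250 bases before the RefSeq start of TXNIP, the only gene of the 10 with the FOXO site GTAAACA in this window, and of CCNG2, the target with the lowest p-value, which has an E-box (CACGTG) there. They come from RefSeq on GRCh38.p14, at chr1:145996580-145996829 on the minus strand and chr4:77156957-77157206 on the plus strand, while the submitters' notes name GRCh37 and hg19 for the counts. They read 5′ to 3′ along the gene, and capitals mark the FOXO site or the E-box.
TXNIP: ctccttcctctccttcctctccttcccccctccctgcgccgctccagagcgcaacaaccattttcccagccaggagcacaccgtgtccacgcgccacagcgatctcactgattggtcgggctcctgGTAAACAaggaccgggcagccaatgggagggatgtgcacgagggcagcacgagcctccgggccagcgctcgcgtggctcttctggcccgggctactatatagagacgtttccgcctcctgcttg
CCNG2: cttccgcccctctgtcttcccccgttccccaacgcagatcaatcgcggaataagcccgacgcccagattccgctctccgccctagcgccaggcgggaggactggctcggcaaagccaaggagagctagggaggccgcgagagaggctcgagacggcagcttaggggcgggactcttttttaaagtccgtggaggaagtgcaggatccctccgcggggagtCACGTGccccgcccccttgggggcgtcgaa
The FOXO site of TXNIP starts 124 bases before the start and the E-box of CCNG2 30 bases before it. All 10 genes matched the table, with 17 windows because some have several starts. Both strands were searched for these exact letters only, so other forms of either site were not counted, and the motifs do not overlap each other. The FOXO site was in 1 of the 17 windows and in 2.98% of 35116 promoter windows of that length. The E-box, which reads the same on both strands, was in 2 of the 17, those of CCNG2 and CITED2, and in 6.34% of all. A match is a match of letters only, and these windows leave out more distant sequence.

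PIK3IP1, which encodes a membrane protein that restrains PI3K, lay between 2.24 and 3.95 CPM under vehicle and between 2.64 and 4.54 CPM under evexomostat. Its log2 fold change was 0.11 (SE 0.21, 95% interval -0.33 to 0.56, edgeR adjusted p 0.875). Its antisense neighbour PIK3IP1-AS1 had 0 to 8 counts per library against 61 to 138 for PIK3IP1, and use of strand in the counting is not stated.

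SESN3 encodes a sestrin, a stress-induced protein that restrains mTORC1. It ran from 1.67 to 4.52 CPM under vehicle and from 1.77 to 4.04 CPM under evexomostat. The group means were almost equal, at 2.85 ± 0.978 CPM (SD, n = 6) and 2.88 ± 1.09 CPM (SD, n = 5), and the log2 fold change was 0.01 (SE 0.30, 95% interval -0.64 to 0.66, edgeR adjusted p 0.993). In the evexomostat group the libraries with more FOXO1, replicates 003 and 005, also had the highest SESN3, at 3.97 and 4.04 CPM.

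PDK4 encodes a kinase that shuts off pyruvate dehydrogenase and spares glucose, a classic FOXO target in fasted muscle. Its vehicle level was 10.5 CPM in replicate 003 and 7.90 in 006, and between 2.91 and 3.95 in the others. Under evexomostat it was at 5.37, 7.13, 7.61, 4.57 and 4.70 CPM in replicates 002, 003, 004, 005 and 007, all above the low vehicle tumours and below the high value of replicate 003. Its log2 fold change was 0.16 (SE 0.35, 95% interval -0.60 to 0.93, edgeR adjusted p 0.899). Evexomostat replicate 005, which held the most muscle transcripts, was at 4.57 CPM, close to replicate 007 at 4.70 CPM. The part of muscle tissue in the PDK4 values was not tested.

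CITED2 encodes a co-regulator that competes with hypoxia-inducible factors for the coactivators CBP and p300. It was at 152.6 CPM in vehicle replicate 003 and at 68.3 to 84.4 CPM in the other vehicle tumours. Under evexomostat it was at 102.4, 71.8, 96.3, 79.8 and 130.4 CPM in replicates 002, 003, 004, 005 and 007. The log2 fold change was 0.12 (SE 0.22, 95% interval -0.36 to 0.60, edgeR adjusted p 0.876), and without vehicle replicate 003 it was 0.35 (edgeR adjusted p 0.405).

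TNFSF10 encodes TRAIL, a ligand that triggers death receptors and is also induced by interferon. It was rare, with 8 to 51 counts per library. It was at 2.23 CPM in vehicle replicate 001 and 1.37 in 006, and between 0.294 and 0.544 in the other vehicle tumours. Under evexomostat it was at 1.85 CPM in replicate 004 and between 0.652 and 0.902 in the others. Its fold change on the log2 scale was 0.21 (SE 0.50, 95% interval -0.87 to 1.29, edgeR adjusted p 0.908), and without vehicle replicate 001 it was 0.68 (edgeR adjusted p 0.341). In the 8 libraries whose replicate number occurs in both groups, which leave out the high vehicle tumours 001 and 006 and evexomostat replicate 002, it was 1.28 (edgeR p 0.00503, adjusted p 0.0702). The estimate of TNFSF10 thus depended on which tumours entered the fit.

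Across libraries, vehicle replicate 003 was the highest of all 11 in 4 genes, FOXO4, CCNG2, PDK4 and CITED2. Vehicle replicate 007 was the highest in FOXO1, FOXO3 and SESN3 and the lowest in CCNG2, PIK3IP1 and TNFSF10. No evexomostat library was the highest in more than 1 gene. The 10 genes therefore did not rank the tumours in a common order.

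**Figure D3:**
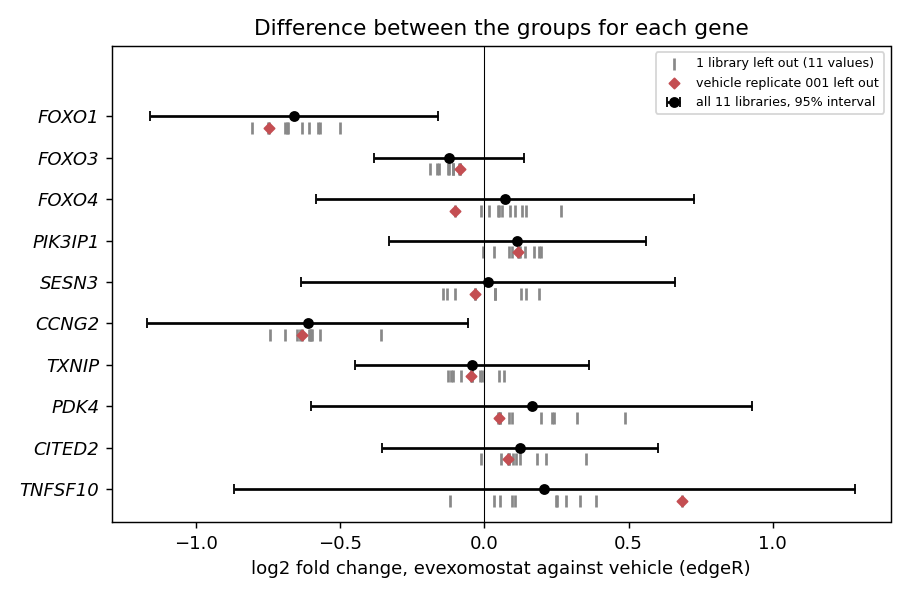
Log2 fold change of each gene between evexomostat and vehicle in edgeR, with its 95% interval (black), the values with 1 library left out (grey ticks) and with vehicle replicate 001 left out (red diamonds). FOXO1 and CCNG2 lie below 0 with every library left out, and the other intervals include 0.

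The width of the intervals sets what these data could show. In the fit with all libraries, the 95% interval of 7 of the 10 genes lay within 1 on the log2 scale on both sides. A doubling or a halving lay outside it, and for FOXO3 and TXNIP it lay within 0.5. Among the 7, PDK4 moved from 0.16 (SE 0.35) to 0.49 (SE 0.31) without vehicle replicate 003. For FOXO1, CCNG2 and TNFSF10 it reached beyond 1. In the authors' deposited table, none of the 10 genes (0) has an adjusted p-value under 0.05, where 268 of all its genes do. FOXO1 has a log2 fold change of -0.56 and an adjusted p of 0.537 in the authors' deposited table, and CCNG2 one of -0.52 and 0.663.

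**Figure D4:**
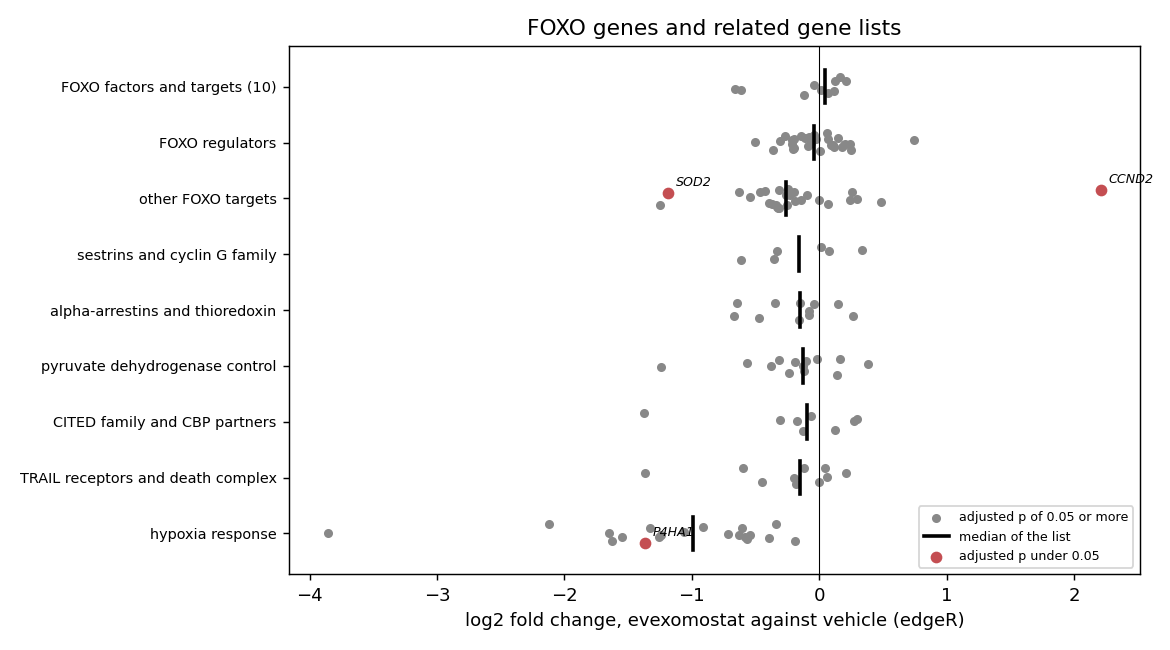
Log2 fold change in edgeR of every tested gene of the 10 FOXO genes and 8 related lists, one row per list, with the median as a black bar and genes past an adjusted p of 0.05 in red. The median is 0.04 for the FOXO genes and -0.99 for the hypoxia response list, and the called genes are SOD2, CCND2 and P4HA1.

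Genes around the FOXO factors were read from the same fit. Of 29 tested regulators (kinases, phosphatases, YWHA anchoring proteins, deacetylases and acetylases), 0 passed in edgeR, and 0 were under an unadjusted p of 0.05, with a median log2 fold change of -0.04. The lowest p-values were those of PIK3R1, the PI3K regulatory subunit (-0.50, edgeR adjusted p 0.386), SIRT1, a deacetylase of FOXO proteins (0.24, 0.395) and STK3, a stress kinase that phosphorylates them (-0.27, 0.423).

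Of 28 tested further FOXO targets, 1 fell and 1 rose past the threshold in edgeR, where 0.606% of all tested genes passed. Estimates were below 0 in 21 and above 0 in 7, with a list median of -0.26. Estimates above 0 thus made up 25% of the list, beside 44.6% of all tested genes. Under an unadjusted p of 0.05 were 5 genes with lower and 2 with higher estimates, where 13.4% of all tested genes were under that limit. SOD2, the mitochondrial superoxide dismutase, fell from 2386 ± 363.6 CPM (SD, n = 6) to 1049 ± 140.8 CPM (SD, n = 5). Its log2 fold change was -1.19 (SE 0.16, edgeR adjusted p 0.0138), and the groups did not overlap, as for 2.97% of all tested genes. CCND2, the cyclin D2 gene that FOXO factors are known to repress, rose from 2.07 ± 1.35 to 9.50 ± 4.21 CPM. Its log2 fold change was 2.21 (SE 0.45, edgeR adjusted p 0.0469), with 4.14 CPM in the lowest evexomostat and 4.27 CPM in the highest vehicle library. SOD2 no longer passed without evexomostat replicate 002, 005 or 007 (adjusted p 0.0525, 0.0558 and 0.0609). CCND2 no longer passed with upper quartile scaling (0.0557) and without any single library other than vehicle replicate 001 (0.0580 to 0.134).

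The relatives of SESN3 and CCNG2 went in different directions. SESN2, a sestrin induced by amino acid and endoplasmic reticulum stress, was at 38.7 to 49.0 CPM under vehicle and 51.3 to 62.8 CPM under evexomostat (log2 fold change 0.34, edgeR adjusted p 0.211). SESN1, a p53 and FOXO target, was at 13.6 to 15.8 CPM under vehicle and 9.71 to 12.97 CPM under evexomostat (-0.33, 0.296). Neither pair of groups overlapped, as for 2.97% of all tested genes, and neither gene passed. CCNG1 had a log2 fold change of -0.35 (edgeR adjusted p 0.405), and 0 of the 6 genes of these families passed. Under an unadjusted p of 0.05 were 3, CCNG2 among them, where 13.4% of all tested genes were.

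Of 11 tested alpha-arrestin and thioredoxin genes 0 passed in edgeR, with a median of -0.15. Under an unadjusted p of 0.05 were 3, where 13.4% of all tested genes were. ARRDC3 (-0.67, edgeR adjusted p 0.125) and ARRDC4 (-0.47, 0.267), relatives of TXNIP, had lower estimates, as did TXN, the thioredoxin that TXNIP binds (-0.65, 0.323). ARRDC3 passed in 5 of 22 alternatives, among them DESeq2 (adjusted p 0.0263), quality weights (0.0180) and edgeR without vehicle replicate 001 (0.0479). Of 13 genes of pyruvate dehydrogenase control 0 passed in edgeR and 4 were under an unadjusted p of 0.05, again beside 13.4% of all tested genes. PDK1, a hypoxia-induced relative of PDK4, was at 34.3 to 153.0 CPM under vehicle and 24.8 to 32.9 CPM under evexomostat, with a log2 fold change of -1.24 (edgeR adjusted p 0.134). It passed in 4 of the alternatives, with DESeq2 (adjusted p 0.0180), with quality weights (0.0284), without vehicle replicate 001 (0.0429) and in the 8 libraries that share a number (0.0348). PDK3 was at -0.57 (0.281) and the opposing phosphatase gene PDP1 at 0.38 (0.324).

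Of 8 CITED genes and partners 0 passed in edgeR and 1 was under an unadjusted p of 0.05. Over all tested genes 13.4% were under that limit, a share to set beside the TRAIL genes below as well. HIF1A, the hypoxia factor subunit whose coactivator binding CITED2 blocks, had a vehicle mean of 164.2 ± 87.1 CPM (SD, n = 6) and an evexomostat mean of 63.4 ± 15.8 CPM (SD, n = 5), with a log2 fold change of -1.37 (edgeR adjusted p 0.141). HIF1A passed in 5 of 22 alternatives, among them DESeq2 (adjusted p 0.0175), quality weights (0.00485) and edgeR without vehicle replicate 001 (0.00873). EP300, the p300 gene, had an adjusted p of 0.531 with all libraries and passed in 3 alternatives, quality weights (0.0299), without vehicle replicate 001 (0.0143) and the 8 libraries that share a number (0.0256). TFAP2C was at -0.18 (0.751). Of 10 genes of the TRAIL pathway 0 passed in edgeR and 2 were under an unadjusted p of 0.05, CFLAR, an inhibitor of caspase activation (-0.60, 0.231, and 0.0312 with quality weights), and TNFRSF11B, the secreted decoy osteoprotegerin (-1.37, 0.242). CASP8 was at -0.45 (0.401).

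In the hypoxia response list every estimate lay on the same side. Of 20 genes 20 had estimates below 0, with a median of -0.99, where 44.6% of all tested genes had estimates above 0. Under an unadjusted p of 0.05 were 16, where 13.4% of all tested genes were, 8.55% with lower estimates. In edgeR 1 passed, beside 0.606% of all tested genes. That was P4HA1, a collagen hydroxylase, which fell from 128.1 ± 46.9 CPM (SD, n = 6) to 49.7 ± 6.19 CPM (SD, n = 5), with a log2 fold change of -1.37 (edgeR adjusted p 0.0233). P4HA1 passed in 16 of 22 alternatives. It did not with any single evexomostat library left out (adjusted p 0.0619 to 0.0901) or with a replicate block (0.0565). Over all lists apart from the 10 genes, 3 of 113 tested genes passed, where 0.606% of all tested genes did. Without vehicle replicate 001, 18 did so, while the count over all genes went from 101 to 865. The lists were chosen with earlier results of these data known. The list shares BNIP3 and MXI1 with the further FOXO targets and PDK1 with pyruvate dehydrogenase control.

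The genes whose levels tracked each FOXO gene most closely over the 11 libraries were named by Pearson correlation of log2 CPM. They were the highest over all other tested genes, both groups and the outlying library share them, and they carry no p-value. For FOXO1 they were SDHAP1 (0.98), HLA-L (0.95) and IRAK3 (0.95), for FOXO3 CLYBL, LOC100128108 and SON (0.95, 0.94 and 0.94) and for FOXO4 MTMR11, NPHP4 and WNT9A (0.96, 0.95 and 0.95). Without vehicle replicate 001 the values of FOXO4 were 0.87, 0.81 and 0.86. For CCNG2 they included DUSP9 and CDK19 (0.94 and 0.93), for TXNIP CA13, ZNF174 and INPP1 (0.88, 0.88 and 0.87) and for PDK4 NACAD, CCDC87 and HHAT (0.91, 0.90 and 0.90). For CITED2 they were LIMCH1, NOA1 and GRAMD1B (0.91, 0.91 and 0.87), for SESN3 ZNF605, VWA5A and WBP2NL (0.94, 0.92 and 0.91), for PIK3IP1 ECE1-AS1, KCNN4 and PIDD1 (0.90, 0.89 and 0.88) and for TNFSF10 SLC35B1, C9orf116 and LOC100506178 (0.96, 0.95 and 0.94). None of the 10 FOXO genes was among the closest genes of another. Among the 10 themselves the correlations ran from -0.50 (FOXO1 and TNFSF10) to 0.65 (FOXO4 and PDK4). Without vehicle replicate 001 they ran from -0.51 (PIK3IP1 and CITED2) to 0.79 (FOXO4 and CCNG2, 0.30 with it), and FOXO4 and TNFSF10 went from -0.39 to 0.18.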

How the data were processed

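Total RNA of 11 tumours, 6 vehicle and 5 evexomostat, was grouped by the titles in the labels, and columns were matched by the code in the sample description. Per the submitters' processing notes, bcl2fastq 2.17, STAR 2.7.5c, Subread featureCounts and edgeR were used, with builds GRCh37 and hg19, and no roles are given. The annotation, use of strand and handling of mouse reads are not given in the sources used here. The deposited counts are whole reads per gene symbol, and the deposited RPM values are those counts scaled to the library total. In the authors' deposited table, fold changes are log2 values, with p-values and adjusted p-values, and its group means and SDs, deposited as a signal per gene, are in RPM.

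Genes were kept with filterByExpr (minimum count 10, minimum total 15), scaled with TMM and tested with edgeR 4.0.16 (quasi-likelihood F-test, R 4.3.3, no covariates, Benjamini-Hochberg threshold 0.05). The standard error is the one implied by F, and intervals use the fit's degrees of freedom. Correlations used log2 CPM with a prior count of 2. Exon lengths are union lengths from GENCODE release 29, and promoters come from RefSeq. Alternatives were other scalings, DESeq2 1.42.0, limma 3.58.1 (voom, quality weights, trend on RPM), filters, a replicate block and leaving out each library. Spreads, shares and correlations without vehicle replicate 001 or 003 were added after seeing the data. The fits were also run on simulated counts, in which no library was made to differ as vehicle replicate 001 does. The outcome of that run is not reported here. The genes and lists were chosen with earlier results of these data known. Named list genes were those past the threshold, or otherwise the 3 lowest p-values of a list, and the 3 closest genes by correlation, of which 1 is not reported here. Members of 2 lists count in both.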

Additional observations from a re-analysis of the deposited data

Results flagged for a closer look

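In 20 groups of libraries, 3 held a library whose gap to the nearest other was a large part of the group's range, where about 1 would by chance. In vehicle replicate 003 CITED2 reached 152.6 CPM, where the rest of its group lay between 68.3 and 84.4 CPM. TNFSF10 was at 1.85 CPM in evexomostat replicate 004, against 0.652 to 0.902 CPM in the other evexomostat libraries. CCNG2 was at 11.16 CPM in evexomostat replicate 007, against 9.72 to 10.05 CPM in the others of that group, a small gap in a narrow group.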

How the results depend on the processing

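Of the 22 alternatives, only limma-voom with sample quality weights changed the count of FOXO genes past the threshold, from 0 to 1 (FOXO1). It was 0 to 0 over the libraries left out. Over all genes the count moved from 101 to 649 with DESeq2, 1059 with quality weights and 733 in the 8 libraries that share a replicate number, with no replicate block, and ranged from 1 to 865 with single libraries left out. The other lists moved from 3 genes to 14, 21 and 18 in the same order and to 12 with the replicate block, and ranged from 0 to 18. The groups share the numbers 003, 004, 005 and 007. The deviations of tumours with the same number correlated at -0.27, 0.07, 0.05 and -0.10. The labels do not say what a number stands for, so the main fit did not pair tumours. Whether tumours with the same number share a batch was not tested. The replicate block called 107 genes and 0 of the FOXO genes, put TNFSF10 at 1.25 (adjusted p 0.127), and called ARRDC3 (0.0370) and HIF1A (0.0470) but not P4HA1 (0.0565).

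Small estimates changed sign, none past the threshold. With quality weights FOXO4 was at -0.0804 and PIK3IP1 at -0.0168, and with limma-voom SESN3 was at -0.0068. TXNIP was at 0.17 with the replicate block, 0.17 without it on the same libraries, and 0.0427 at both RPM pseudocounts, where the all-gene median shifted by 0.11 and 0.14. FOXO4 and CITED2 were at -0.039 and -0.0132 in the 8 libraries that share a replicate number, with no replicate block. With 1 library left out, FOXO4 ranged from -0.10 to 0.27, PIK3IP1 from -0.0050 to 0.20, SESN3 from -0.14 to 0.19, TXNIP from -0.13 to 0.068, CITED2 from -0.011 to 0.35 and TNFSF10 from -0.12 to 0.68. TNFSF10 was not tested at a minimum mean log2 CPM of 1, and it had the lowest counts of the 10 genes, 8 to 51 per library. The cause of these changes was not tested.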
